A study of Mus musculus and Homo sapiens with 30 samples.

Results

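The genes described here are the aryl hydrocarbon receptor, its nuclear partner, its repressor and its best-known target genes. They were taken by name and gene ID, not by their measured values: 6 mouse genes (Ahr, Arnt, Ahrr, Cyp1a1, Cyp1b1 and Tiparp) of 56980 gene IDs and 5 human genes (AHR, AHRR, CYP1A1, CYP1B1 and TIPARP) of 61552 gene IDs. Poly(A) RNA was sequenced in 30 libraries of 3 cell lines. They were the human breast cancer line SkBr3, with 4 libraries in each medium, and 2 mouse lines with 3 libraries in each medium. E0771 comes from a mammary cancer and NMuMG from mammary gland epithelium, although the labels list NMuMG as breast cancer too. Cells were grown for 36 h and then held for 16 h in 1 of 3 media. The control was standard growth medium, and the other media were 50% growth medium and 50% secretome, that is, medium in which inguinal adipocytes of lean or of obese origin had been kept. All lines were kept in DMEM with 10% FBS. For NMuMG the labels also list insulin (10 mcg/ml) and glucose (4.5 g/L), and for the other lines they give no value of either. Each cell type is represented by a single established line, the species of the adipocytes is not in the labels, and the control held no secretome, so lean against obese is the comparison matched for the share of secretome. Nothing in the labels says that the replicates came from separate cultures, so p-values measure the spread between these libraries, which may be technical.

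The receptor is a ligand-activated transcription factor that waits in the cytoplasm in a complex with HSP90 and p23. Planar aromatic compounds and tryptophan products bind it, it moves to the nucleus, pairs with ARNT and binds DNA at sites with the core GCGTG. The pair switches on CYP1A1 and CYP1B1, monooxygenases that oxidise aromatic compounds, estrogens and polyunsaturated fatty acids. It also switches on AHRR, which competes with the receptor for ARNT, and TIPARP, an ADP-ribosyltransferase that curbs the receptor. CYP1B1 is known to be well expressed in breast tissue, and CYP1A1 is the usual marker of receptor activity. The title of the series concerns an oxylipin from lean adipocytes and ferroptosis, in which cells die of iron-dependent lipid oxidation.

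The start regions of the 3 mouse target genes with the most contrasting patterns are shown, because these are the sequences in which the core site can be looked for. They are from RefSeq on GRCm38.p6, each with 250 bases before and 50 after the annotated start, and were matched by symbol for 5 of the 6 mouse genes. Capitals mark GCGTG or its reverse complement. They lie at chr9:57697363-57697662 (plus strand) for Cyp1a1, chr17:79715012-79715311 (minus strand) for Cyp1b1 and chr3:65528197-65528496 (plus strand) for Tiparp.
Cyp1a1: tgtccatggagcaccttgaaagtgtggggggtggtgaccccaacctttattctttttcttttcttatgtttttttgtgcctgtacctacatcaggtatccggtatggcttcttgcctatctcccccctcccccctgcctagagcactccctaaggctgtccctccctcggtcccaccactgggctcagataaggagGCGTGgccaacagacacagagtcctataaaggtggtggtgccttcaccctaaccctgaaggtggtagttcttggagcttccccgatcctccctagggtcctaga
Cyp1b1: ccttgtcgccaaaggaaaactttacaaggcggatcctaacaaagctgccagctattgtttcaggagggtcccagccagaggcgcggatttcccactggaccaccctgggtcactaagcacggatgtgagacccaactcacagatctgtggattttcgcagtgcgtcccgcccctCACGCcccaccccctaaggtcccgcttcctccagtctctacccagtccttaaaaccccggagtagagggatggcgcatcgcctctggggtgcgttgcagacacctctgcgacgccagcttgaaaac
Tiparp: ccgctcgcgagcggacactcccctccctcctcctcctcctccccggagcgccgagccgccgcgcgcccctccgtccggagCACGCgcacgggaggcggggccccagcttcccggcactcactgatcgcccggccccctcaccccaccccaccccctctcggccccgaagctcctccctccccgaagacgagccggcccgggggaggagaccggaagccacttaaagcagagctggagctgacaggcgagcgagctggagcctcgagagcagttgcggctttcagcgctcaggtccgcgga
Each window held 1 GCGTG, on the printed strand at -54 from the start for Cyp1a1 and on the opposite strand at -76 for Cyp1b1 and -170 for Tiparp. Arnt also held 1, at -29, and Ahrr held 3, at -107, -82 and -27. The longer motif TNGCGTG, searched on both strands and overlapping the core, was in the Ahrr window alone, at -29. GCGTG was in 32.4% of 32851 mouse start regions of this length, at least 3 copies were in 3.91%, and TNGCGTG was in 5.07%. A match is a description of letters, and its absence from a window says nothing of the factor.

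The libraries held between 18479433 and 31094119 counted reads. Levels below are CPM, reads per 1e6 reads on totals scaled by TMM, and log2 fold changes are given with their standard error (SE) and with p-values of edgeR's quasi-likelihood test, adjusted by the Benjamini-Hochberg method over all genes tested in that comparison. A gene was called when the adjusted p was under 0.05. Of the 11 genes, 5 of 5 passed the filter on low counts in SkBr3, 2 of 6 in E0771 (Arnt and Tiparp) and 5 of 6 in NMuMG (all but Ahrr). In E0771 the epithelial markers Krt19, Krt18, Cldn4, Epcam and Cdh1 had 0, 2, 8, 13 and 41 reads over all 9 libraries, while Krt8 was present and the 4 mesenchymal markers summed to between 3309 and 3889 CPM in the control and obese libraries and between 2147 and 2409 CPM in the lean ones. NMuMG carried all 6 epithelial markers, which summed to between 7071 and 7503 CPM in control medium, 6736 and 7115 with obese secretome and 7809 and 8029 with lean secretome. Of these 6, 5 were called higher in lean against obese, where 35% of all genes were called, 17.6% as higher. In obese against control 2 of the 6 were called lower, where 5.01% of all genes were called. Of the mesenchymal markers, 3 of 3 tested in E0771 were called lower in lean against obese, where 26.9% of all genes were called lower. In NMuMG 1 of 4 was called higher and 2 lower in that comparison, where 17.4% of all genes were called lower. The 10 adipocyte markers summed to between 0.822 and 1.65 CPM in E0771 and in NMuMG to between 21.1 and 22.4 CPM in control medium, 20.8 and 27.0 with obese secretome and 24.3 and 28.0 with lean secretome, with Lep at 0 in every mouse library. The 4 macrophage markers reached no more than 4.27 CPM in sum, and in E0771 Ptprc had 0, 2 and 21 reads and Csf1r 5, 3 and 28 in the control, obese and lean groups. The part of these markers in the results below was not tested. In bulk RNA, a change in the number of expressing cells and a change in the RNA per cell cannot be told apart.

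The receptor itself separated the 2 mouse lines. In E0771, Ahr (ENSMUSG00000019256) had 0 reads in each of the 9 libraries, of 242890182 reads in all, which with a floor of 3 counts allows a level of up to 0.0124 CPM; the exact Poisson 95% upper bound was 0.0152 CPM, and both cover counting error alone. In NMuMG it had 16225 reads, or 67.6 CPM over the line. That was 5473-fold the floor of 3 counts over E0771, a ratio that leaves out counting error. Snx13, which lies beside Ahr in the RefSeq gene order, had between 1014 and 1403 reads per E0771 library and between 1124 and 1707 per NMuMG library (chosen after its values were seen). Of the other neighbours looked at, Agr2, Agr3 and Prps1l1 had 0 reads in both lines, Tspan13 had 0 to 1 read per library in E0771 and 3 to 16 in NMuMG, and Hdac9 had 0 to 2 and 1 to 11. The line and its medium, for which glucose and insulin are listed in NMuMG alone, cannot be told apart in this difference.

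Within NMuMG, Ahr was 63.1, 72.3 and 74.3 CPM in control medium, 70.5, 72.4 and 68.2 CPM with obese secretome, and 64.3, 66.2 and 58.5 CPM with lean secretome. Every lean library lay below every obese library, while 1 control library overlapped the lean group. The lean level fell by 0.16 on the log2 scale against obese (SE 0.0547, adjusted p = 0.0251). Against control it fell by 0.15 (SE 0.0542, adjusted p = 0.0315). Neither call held without lean replicate 3, where the adjusted p was 0.149 against obese and 0.171 against control. Against obese the call was also lost without obese replicate 1 (0.0584) or 2 (0.102), and against control without control replicate 2 (0.146) or 3 (0.191) and in DESeq2 (0.0543).

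In SkBr3, AHR (ENSG00000106546) moved the other way. It was 35.9, 37.9, 37.9 and 36.8 CPM in control medium, 37.5, 38.6, 36.0 and 39.5 CPM with obese secretome, and 42.8, 43.4, 40.2 and 48.9 CPM with lean secretome. The lean libraries overlapped neither of the other groups. AHR rose by 0.21 on the log2 scale in lean over obese (SE 0.0554, adjusted p = 0.00352). Over control it rose by 0.24 (SE 0.0560, adjusted p = 0.00101). The 2 species were counted in separate tables and the difference between SkBr3 and NMuMG was not tested.

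CYP1A1 (ENSG00000140465) gave the largest change among the human genes. It was 3.78, 5.01, 4.17 and 2.69 CPM in control medium, 6.83, 3.86, 14.6 and 11.2 CPM with obese secretome, and 32.2, 41.6, 13.3 and 60.3 CPM with lean secretome. Every lean library was above every control library, but lean replicate 3 lay below obese replicate 3, and the lean group spread widely (36.9 CPM ± 19.6, SD, n = 4). Against control, CYP1A1 rose 9.47-fold (log2 3.24, SE 0.551, adjusted p = 0.000881). Lean over obese was a rise of 4.04-fold (log2 2.02, SE 0.476, adjusted p = 0.00714). Obese over control was 1.23 on the log2 scale (SE 0.621) and was not called (adjusted p = 0.434).

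CYP1B1 (ENSG00000138061) followed the same order of media. It was 26.7, 30.2, 27.3 and 27.9 CPM in control medium, 37.9, 27.5, 39.1 and 48.1 CPM with obese secretome, and 89.8, 111, 59.1 and 124 CPM with lean secretome. All 4 lean libraries were above all 8 others, and lean replicate 3 was again the lowest of its group. The rise was 3.45-fold over control (log2 1.79, SE 0.240, adjusted p = 0.000191). Over obese it was 2.52-fold (log2 1.33, SE 0.230, adjusted p = 0.00121). Obese over control was 0.45 on the log2 scale (SE 0.250, adjusted p = 0.487). Across the 12 SkBr3 libraries the log2 CPM of CYP1A1 and CYP1B1 had a Pearson r of 0.97. With AHR the r was 0.85 for CYP1A1 and 0.91 for CYP1B1, and the libraries share 3 media, which bears on each of these values. Among 10600 genes compared in these libraries, CYP1B1 ranked second in likeness to CYP1A1, just after ENSG00000104904 (both r = 0.97).

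Neither of the 2 feedback genes was called higher with lean secretome in SkBr3. AHRR (ENSG00000063438) was 2.89, 2.48, 2.52 and 2.83 CPM in control medium, 3.21, 2.75, 3.02 and 3.00 CPM with obese secretome, and 3.09, 3.13, 5.11 and 2.79 CPM with lean secretome. The groups overlapped, and lean replicate 3, the lowest of the lean libraries for CYP1A1 and CYP1B1, was the highest for AHRR. Lean over control was 0.37 on the log2 scale (SE 0.169) and was not called, with an adjusted p of 0.0737 (0.0315 without lean replicate 4). These values moved most with lean replicate 3: without it lean over control was 0.16 (adjusted p = 0.394) and lean over obese 0.00065 (adjusted p = 0.998), against 0.17 to 0.31 over obese without any 1 of the other lean and obese libraries. TIPARP (ENSG00000163659) averaged 31.2 CPM ± 1.41 in control medium, 29.8 ± 1.24 with obese secretome and 27.2 ± 1.23 with lean secretome (SD, n = 4). TIPARP fell by 0.20 on the log2 scale in lean against control (SE 0.0559, adjusted p = 0.00580), without overlap between the groups. Lean against obese was -0.13 (SE 0.0555) and was not called, with an adjusted p of 0.0580, but came under the threshold without lean replicate 2 (0.0483) or obese replicate 4 (0.0410).

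Counted over SkBr3, 3 of the 5 genes rose and none fell in lean over obese, where 44.1% of all 14874 genes tested were called, 21.1% as higher and 23.1% as lower. In lean over control 3 rose and 1 fell, with 48.8% of all genes called, 23.7% as higher and 25.1% as lower. The median log2 fold change of the 5 genes was 0.21 and 0.37 in these comparisons, against 0.00 in both over all genes tested. In obese over control 0 of 5 were called by edgeR, where 1.16% of all genes were called, and 0 by DESeq2. At an unadjusted p under 0.05 there were 0 as well, and the share of all genes at that threshold is not given here.

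**Figure D1:**
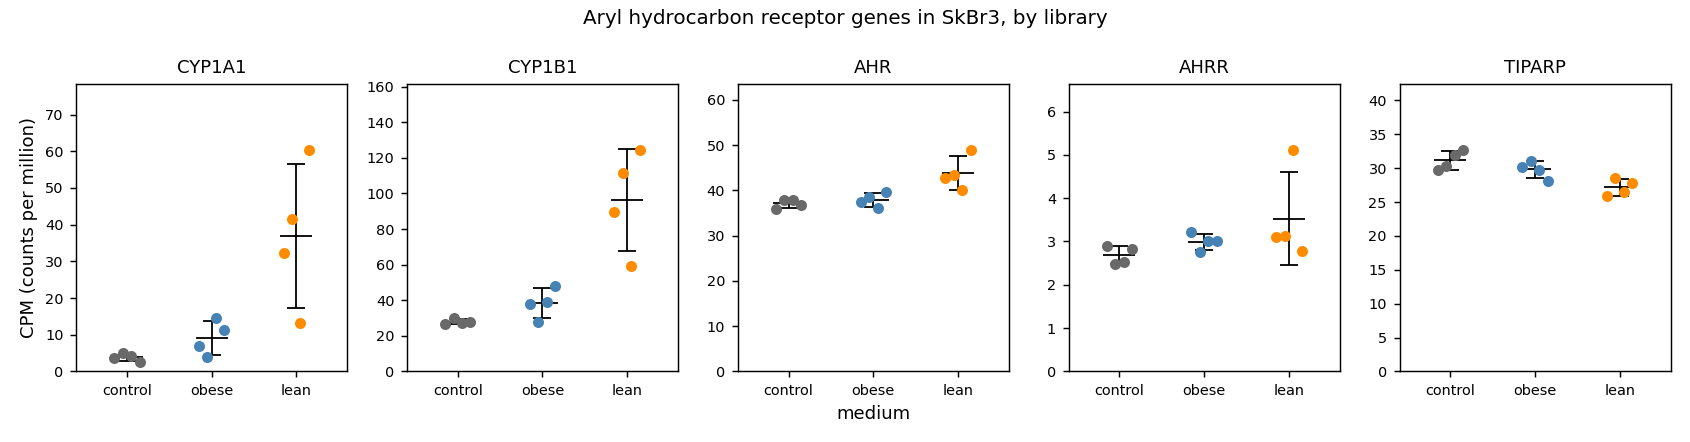
CPM of the 5 human genes in the 12 SkBr3 libraries by medium (points, with the mean and SD of 4 libraries in black). The lean libraries reached 60.3 CPM for CYP1A1 and 124 CPM for CYP1B1, against no more than 14.6 and 48.1 CPM with obese secretome.

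Cyp1a1 (ENSMUSG00000032315) was scarce in both mouse lines and highest with lean secretome in each. In NMuMG it had 20, 8 and 9 reads in control medium, 19, 6 and 14 with obese secretome, and 31, 31 and 67 with lean secretome. That made 0.432 CPM ± 0.207, 0.528 ± 0.278 and 1.61 ± 0.865 (SD, n = 3), and no lean library overlapped another group. Cyp1a1 rose 3.61-fold over control (log2 1.85, SE 0.410, adjusted p = 0.000915). Over obese it rose 3.01-fold (log2 1.59, SE 0.407, adjusted p = 0.00365). Lean replicate 3 carried part of this: without it the value over obese was 1.07 on the log2 scale, with an adjusted p of 0.0421. Obese over control was 0.26 (SE 0.497, adjusted p = 0.861).

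In E0771, where no read of Ahr was seen, Cyp1a1 had 0 reads in the 3 control and the 3 obese libraries and 2, 7 and 9 reads in the lean libraries. The 18 lean reads of 86615491 gave 0.208 CPM, with an exact Poisson 95% interval of 0.123 to 0.328 CPM that covers counting error alone. The lean level was 5.34-fold the floor of 3 counts over the control group and 5.48-fold that over the obese group. These ratios leave out counting error. The exact Poisson 95% upper bound was 0.0478 CPM for control and 0.0466 CPM for obese. An exact two-sided permutation test of 3 against 3 libraries gave p = 0.1 in both comparisons. That is the smallest p this design allows, so the test could not come under 0.05 and no conclusion is drawn from it. The gene did not pass the filter on low counts. With no filter, edgeR's adjusted p was 0.00282 against control and 0.00281 against obese. The gene entered that run through its lean reads alone, so no conclusion is drawn from these p-values. The lean E0771 libraries held 0 reads of Krt19, Ahr and Cyp1b1 and 1 of Gsta1, genes that had 62761, 5155, 6701 and 15432 reads in the lean NMuMG libraries. Some markers of other cell types were also highest with lean secretome in E0771. Over the control, obese and lean groups Cldn4 had 0, 0 and 8 reads, Krt18 0, 0 and 2, Ptprc 0, 2 and 21 and Csf1r 5, 3 and 28. The 1 epithelial and 1 macrophage marker that passed the filter on low counts were not called against control (log2 -0.06 and 0.10). Against obese they were not called either (0.05 and 0.30). The part of these markers in the Cyp1a1 reads was not tested.

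Cyp1b1 (ENSMUSG00000024087) had 5 reads over all E0771 libraries and 21152 over NMuMG, 88.1 CPM. In NMuMG it was 93.5, 90.4 and 101 CPM in control medium, 79.5, 91.9 and 89.9 CPM with obese secretome, and 78.0, 77.4 and 91.4 CPM with lean secretome. The 3 groups overlapped. Lean against obese was -0.08 on the log2 scale (SE 0.0754, adjusted p = 0.436), although it was called without lean replicate 3, with an adjusted p of 0.0231. Lean against control fell by 0.21 (SE 0.0744, adjusted p = 0.0491), a call lost in 6 of 11 other settings. The rise of CYP1B1 seen in SkBr3 was thus not found in NMuMG, while Cyp1a1 rose in both; whether the lines differ was not tested across the tables. The Pearson r of Cyp1a1 with Cyp1b1 over the 9 NMuMG libraries was -0.46, and with Ahr it was -0.88. The libraries share 3 media, and lean replicate 3 was the highest for Cyp1a1 and the lowest for Ahr, which bears on these values.

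Ahrr (ENSMUSG00000021575), the receptor's repressor, was near the floor in both mouse lines. It had 5 reads over the 9 E0771 libraries and 6 over the 9 NMuMG libraries, with at most 3 in any library. It did not pass the filter on low counts. With no filter edgeR called it in no comparison of media, with an adjusted p from 0.683 to 1 and a largest log2 value of 1.14 (E0771 lean against obese, adjusted p = 0.693).

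Arnt (ENSMUSG00000015522), the partner needed for DNA binding, was present in both lines and lowest with lean secretome. In E0771 it was 122, 124 and 123 CPM in control medium, 116, 122 and 121 CPM with obese secretome, and 112, 112 and 110 CPM with lean secretome. In NMuMG it was 56.2, 53.5 and 56.5 CPM in control medium, 50.2, 54.9 and 53.1 CPM with obese secretome, and 47.9, 47.8 and 47.1 CPM with lean secretome. No lean library overlapped another group of its line, while control and obese overlapped in both lines. Arnt fell in lean against control by 0.14 on the log2 scale in E0771 (SE 0.0406, adjusted p = 0.00426). In NMuMG it fell by 0.22 (SE 0.0473, adjusted p = 0.000320). Against obese it fell by 0.10 in E0771 (SE 0.0406, adjusted p = 0.0333) and by 0.15 in NMuMG (SE 0.0480, adjusted p = 0.0143).

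The call against obese was fragile in both lines. In E0771 it was lost without any 1 lean library (0.0585 to 0.0594) or without obese replicate 2 (0.101) or 3 (0.108), and with no filter (0.0792). In NMuMG it was lost without obese replicate 2 (0.0873) or 3 (0.0538). The change did not differ detectably between the lines (NMuMG minus E0771, log2 -0.06, SE 0.0606, adjusted p = 0.503 against obese). In control medium Arnt was lower in NMuMG than in E0771 by a log2 difference of -1.03 (SE 0.0423, adjusted p = 1.91e-24).

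Tiparp (ENSMUSG00000034640), the ADP-ribosyltransferase, rose with lean secretome in E0771, the line without detected Ahr. In E0771 it was 34.5, 40.3 and 39.0 CPM in control medium, 38.4, 36.4 and 39.0 CPM with obese secretome, and 54.0, 45.9 and 49.9 CPM with lean secretome. All lean libraries were above all others. Tiparp rose 1.32-fold over obese (log2 0.40, SE 0.0655, adjusted p = 1.74e-05). The rise over control was also 1.32-fold (log2 0.40, SE 0.0657, adjusted p = 1.51e-05), and both calls held in all 11 other settings run. Obese over control was 0.00 (SE 0.0674, adjusted p = 0.996).

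In NMuMG, Tiparp was 23.6, 23.2 and 25.1 CPM in control medium, 27.5, 25.9 and 26.9 CPM with obese secretome, and 21.9, 25.2 and 25.3 CPM with lean secretome. Lean overlapped control but not obese. Lean against obese was -0.15 (SE 0.0655) and was not called, with an adjusted p of 0.0707 (0.0464 without lean replicate 3). Lean against control was 0.01 (SE 0.0654, adjusted p = 0.943). The response differed between the lines: NMuMG minus E0771 was -0.56 on the log2 scale for lean against obese (SE 0.0961, adjusted p = 8.58e-06). For lean against control it was -0.41 (SE 0.0961, adjusted p = 0.000610). Of all 16529 genes in the joint fit, 34.2% differed between the lines in lean against obese, 18.8% in this direction. For lean against control these shares were 34.5% and 19.4%. Ordered by mean level, E0771 lean (49.9 CPM) came before E0771 control (38.0) and obese (37.9), which did not differ beyond their spread, and the NMuMG groups followed at 26.8 (obese), 24.1 (lean) and 24.0 (control), none called against another. In control medium NMuMG was below E0771 by a log2 difference of -0.54 (SE 0.0687, adjusted p = 2.99e-09), in a comparison where 80.5% of all genes were called, 37.1% as lower in NMuMG.

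**Figure D2:**
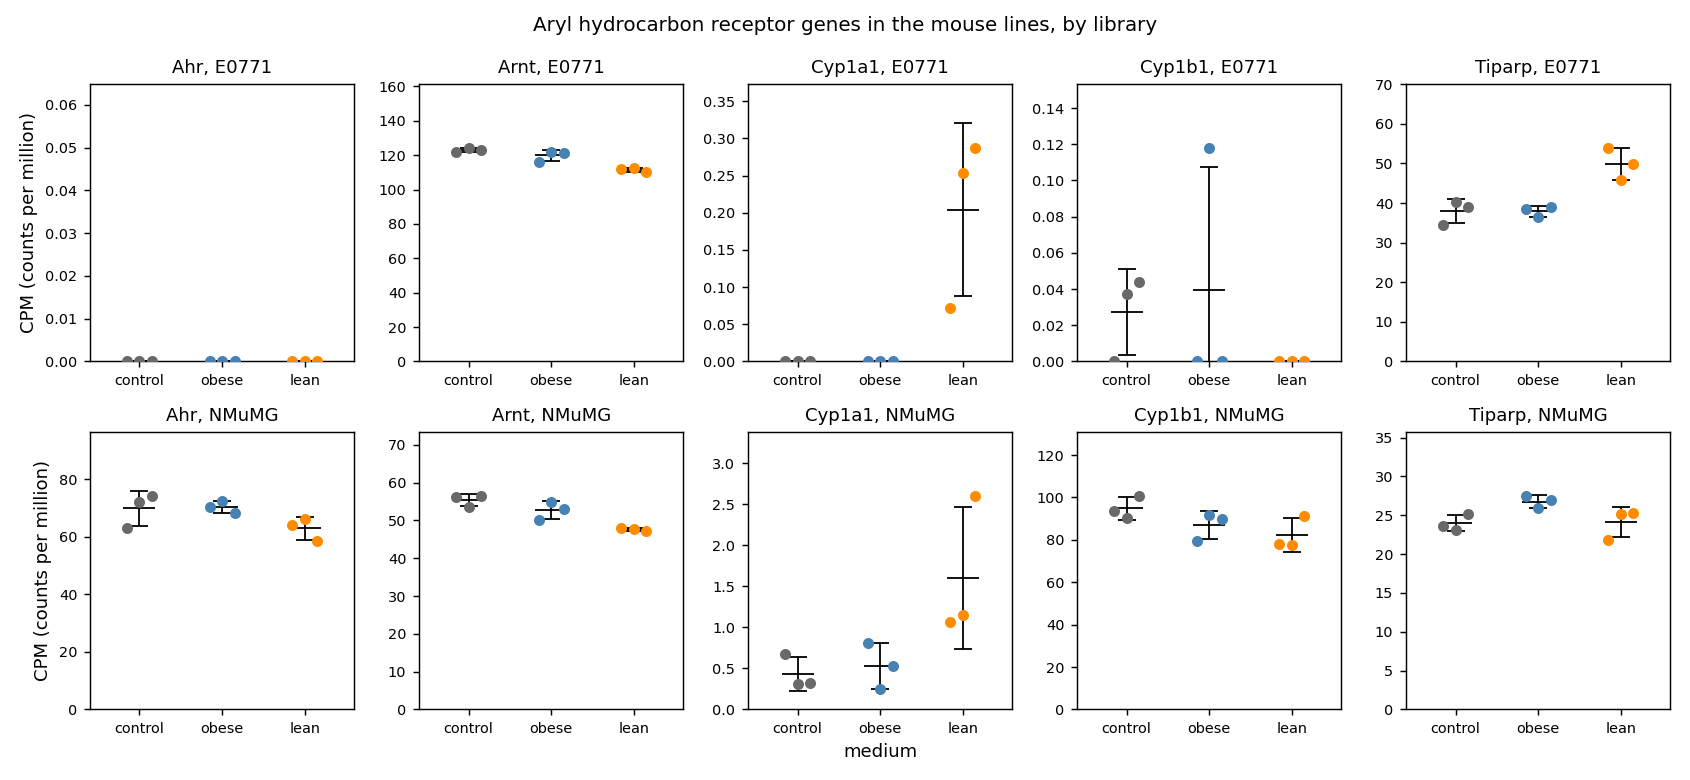
CPM of 5 mouse genes in E0771 (top) and NMuMG (bottom) by medium, as points with the mean and SD of 3 libraries; each panel has its own scale from 0, and an SD bar that would go below 0 is clipped. Ahr is at 0 in all E0771 libraries, E0771 Cyp1a1 has reads with lean secretome alone, and Tiparp is raised by lean secretome in E0771 (49.9 CPM against 38.0).

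Counted over E0771, 1 of the 2 genes tested rose and 1 fell in lean against obese (52.7% of all genes called, 25.8% higher and 26.9% lower) and likewise in lean against control (56.3% called, 27.3% higher and 29% lower). In NMuMG, 1 of 5 rose (Cyp1a1) and 2 fell (Ahr and Arnt) in lean against obese, where 35% of all genes were called, 17.6% as higher and 17.4% as lower. Against control 1 rose and 3 fell, with 38.2% of all genes called, 19.1% as higher and 19.1% as lower. Obese against control gave 0 calls by edgeR and by DESeq2 in both lines, where 2.61% (E0771) and 5.01% (NMuMG) of all genes were called. At an unadjusted p under 0.05 there were 0 of 2 in E0771 and 1 of 5 in NMuMG, Tiparp, which had a log2 value of 0.16 (adjusted p = 0.176) and groups that did not overlap. The share of all genes under that unadjusted threshold, or without overlap, is not given here, so nothing is concluded from this count.

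**Figure D3:**
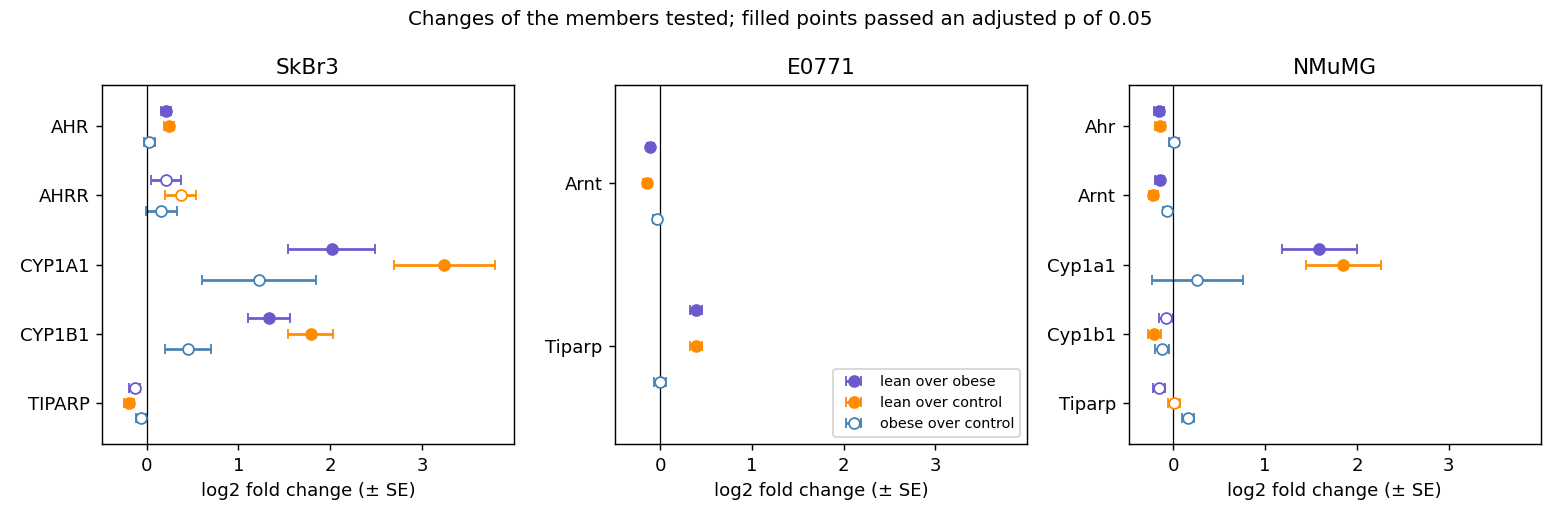
Log2 fold change with SE of each gene that passed the filter on low counts, by line and comparison; filled points had an adjusted p under 0.05. The cytochrome genes in SkBr3 and Cyp1a1 in NMuMG lie farthest to the right in the lean comparisons, from 1.33 to 3.24; their obese against control values are 1.23, 0.45 and 0.26, and each obese against control point is open.

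Genes of most like pattern were sought by Pearson r of log2 CPM, leaving out genes whose mean log2 CPM was under 2. Over the 18 mouse libraries, with each line's mean removed, Ssb (r = 0.95), Cep83 (0.94) and Arf4 (0.93) were most like Tiparp. Arnt was most like Flrt2 (0.96), P3h4 (0.95) and Itga1 (0.94). Over the 9 NMuMG libraries, Cyp1a1 was most like Gm6548 (0.98), Ei24 (0.98) and Klhl5 (0.97), Cyp1b1 was most like Cldnd1 (0.98), 1700052K11Rik (0.95) and Nicn1 (0.94), and Ahr was most like mt-Co2 (0.94), Ppp1r26 (0.94) and Ddx11 (0.92). The libraries of a medium share its effect, and each r was picked as among the highest of 9863 (18 libraries) or at least 10739 (9 libraries) genes compared, so these values are descriptions.

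The remaining pathway genes were followed in the mouse lines. Among 15 further genes known as receptor targets, 9 were tested in E0771, and in lean against obese 4 rose and 4 fell, where 52.7% of all genes were called. Of these 4, Ptgs2 passed the filter on low counts through the lean libraries alone, and without it 3 of 8 rose. In NMuMG 12 were tested, 6 rose and 3 fell, where 35% of all genes were called. The list's median log2 fold change was 0.11 in E0771 (-0.13 without Ptgs2) and 0.33 in NMuMG, against 0.00 over all genes tested in both. Aldh3a1, Nqo1 and Ereg rose in both lines, Ptgs2 rose in NMuMG, and Cdkn1b, Slc7a5 and Hes1 fell in both. Cyp1a2, Serpinb2 and Lpcat2 passed the low-count filter in neither line, and Cyp1a2, the close paralog of Cyp1a1, had at most 3 reads in any mouse library.

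Aldh3a1, an aldehyde dehydrogenase, was 2.89, 2.10 and 1.99 CPM in NMuMG in control medium, 12.5, 3.27 and 2.55 CPM with obese secretome, and 58.0, 54.2 and 65.2 CPM with lean secretome. The lean libraries stood above all others, and obese replicate 1 above its group. Aldh3a1 rose by 3.30 on the log2 scale over obese (SE 0.443, adjusted p = 0.00147). In E0771, without detected Ahr, it was 0.439, 0.337 and 0.351 CPM in control medium, 0.787, 0.590 and 0.638 CPM with obese secretome, and 2.50, 2.54 and 2.46 CPM with lean secretome, also with no overlap. The E0771 rise over obese was 1.89 (SE 0.241, adjusted p = 4.31e-07). The difference between the lines was not called (1.39, SE 0.986, adjusted p = 0.332).

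Nqo1, a quinone reductase, was 30.6, 29.3 and 29.8 CPM in E0771 in control medium, 110, 38.3 and 47.5 CPM with obese secretome, and 179, 182 and 172 CPM with lean secretome. In NMuMG it was 0.907, 1.18 and 0.747 CPM in control medium, 4.36, 0.911 and 1.33 CPM with obese secretome, and 8.02, 8.13 and 7.66 CPM with lean secretome. Lean was highest without overlap in both lines, and obese replicate 1 stood above its group in both. Nqo1 rose over obese by 1.45 in E0771 (SE 0.370, adjusted p = 0.0161) and by 1.87 in NMuMG (SE 0.459, adjusted p = 0.0204). The call was lost without obese replicate 3 in E0771 (0.0575) and NMuMG (0.0663) and, in NMuMG, without any 1 lean library (0.0560 to 0.0585).

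Gsta1, a glutathione transferase of a family of close paralogs whose reads may be split, was 2.52, 3.44 and 3.45 CPM in NMuMG in control medium. It was 66.4, 7.50 and 11.5 CPM with obese secretome and 184, 187 and 196 CPM with lean secretome. The 3 media did not overlap, and obese replicate 1 again stood high. Gsta1 rose over obese by 2.75 (SE 0.657, adjusted p = 0.0187), a call lost without lean replicate 3 (0.0505) or obese replicate 3 (0.0587). Over control it rose by 5.92 (SE 0.899, adjusted p = 0.00234). In E0771 it had 1 read in all. Aldh3a1, Nqo1 and Gsta1 are known as targets of the stress factor NRF2 as well, so the list is not specific to the receptor. Nfe2l2, the NRF2 gene itself, was not called in lean against obese in E0771 (0.11, SE 0.0599) or NMuMG (-0.09, SE 0.0379). Against control it rose in E0771 (0.17, SE 0.0601, adjusted p = 0.0185), where the groups overlapped, and fell by 0.15 in NMuMG (SE 0.0377, adjusted p = 0.00201).

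Ptgs2, a prostaglandin synthase, rose over obese in NMuMG from 59.9 CPM ± 11.1 to 137 ± 5.63 (SD, n = 3), which is 1.20 on the log2 scale (SE 0.126, adjusted p = 0.000417). In E0771 it had 2 to 7 reads per library in control medium, 5 to 9 with obese secretome and 16 to 19 with lean secretome. Only the lean libraries met the minimum of the filter there, so these reads are given as a description with no test. Ereg, an EGF receptor ligand, rose by 1.05 in E0771 (SE 0.101, adjusted p = 3.53e-08). In NMuMG it rose by 0.47 (SE 0.0593, adjusted p = 7.37e-07), and the lines differed by -0.60 (SE 0.135, adjusted p = 0.00141). Among the genes that fell, Cdkn1b, a cell cycle inhibitor, went down by 0.51 in E0771 (SE 0.0538, adjusted p = 2.72e-08). It fell by 0.57 in NMuMG (SE 0.0445, adjusted p = 4.33e-12). Without E0771 obese replicate 3 the number of targets that rose in E0771 was 2 in place of 4, with Ptgs2 among the calls lost. The number that fell stayed at 4.

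**Figure D4:**
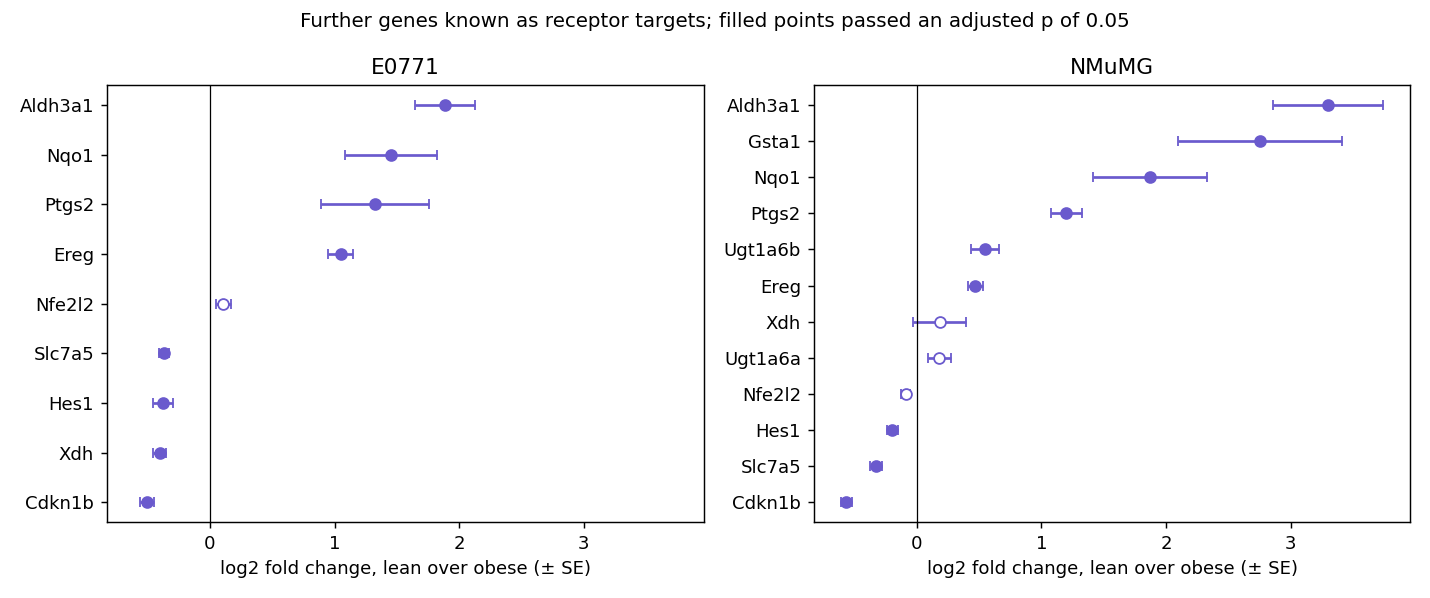
Log2 fold change of lean over obese secretome with SE for the further target genes that passed the filter on low counts in each mouse line (Ptgs2 in E0771 through the lean libraries alone); filled points had an adjusted p under 0.05. Aldh3a1 is at the top in both lines (1.89 in E0771 and 3.30 in NMuMG) and Cdkn1b at the bottom (-0.51 and -0.57).

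Against control medium the same list gave 5 higher and 4 lower of 9 in E0771 (4 and 4 of 8 without Ptgs2), and 7 higher and 4 lower of 12 in NMuMG, where 56.3% and 38.2% of all genes were called. The largest increases were Aldh3a1 (2.71) and Nqo1 (2.58) in E0771, and Gsta1 (5.92), Aldh3a1 (4.66) and Nqo1 (3.07) in NMuMG, on the log2 scale. With obese secretome against control, Ptgs2 (0.80, SE 0.139, adjusted p = 0.0272) and Ereg (0.43, SE 0.0624, adjusted p = 6.93e-05) rose in NMuMG. The Ptgs2 call was lost without any 1 control library (0.0586 to 0.113) or without obese replicate 3 (0.0717).

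Of 10 chaperones and alternative partners of the receptor 7 were tested in E0771, and 5 rose and 0 fell in lean against obese, with a median log2 fold change of 0.33. Of all genes in that comparison 52.7% were called, 25.8% as higher. Hsp90ab1 (0.07) and Arntl (0.10) were the genes not called. Of 9 tested in NMuMG 2 rose and 0 fell, with a median of -0.02, where 35% of all genes were called, 17.6% as higher. Hsp90aa1, the inducible HSP90 that holds the receptor in the cytoplasm, was 1334, 1382 and 1349 CPM in E0771 in control medium, 1587, 1389 and 1457 CPM with obese secretome, and 2724, 2546 and 2713 CPM with lean secretome. The lean libraries stood clear of the rest. Hsp90aa1 rose by 0.85 over obese (SE 0.0412, adjusted p = 4.63e-13), and NMuMG minus E0771 was -0.80 (SE 0.0521, adjusted p = 7.52e-15).

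Ptges3, the p23 cochaperone, rose by 0.35 in E0771 (SE 0.0451, adjusted p = 6.49e-07). Hif1a, which also pairs with ARNT, rose by 0.33 (SE 0.0368, adjusted p = 6.02e-08). The responses of both were smaller in NMuMG, by -0.38 (SE 0.0598, adjusted p = 2.17e-06) for Ptges3 and -0.36 (SE 0.0525, adjusted p = 4.97e-07) for Hif1a. Clock rose by 0.30 in E0771 (SE 0.0403, adjusted p = 8.75e-07). Sim2, a further bHLH-PAS factor, rose from 18, 12 and 5 reads with obese secretome to 30, 25 and 44 with lean secretome (log2 1.34, SE 0.371, adjusted p = 0.00380). In NMuMG the genes that rose were Arntl, the clock partner BMAL1 (0.35, SE 0.0923, adjusted p = 0.00288), and Epas1, or HIF2A (0.29, SE 0.0860, adjusted p = 0.00929). The Epas1 call was lost without lean replicate 3 (0.0526) or obese replicate 2 (0.0708).

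Arnt2, the close relative of Arnt, did not pass the low-count filter in E0771. There it had 0 reads in the control libraries, 2, 0 and 1 with obese secretome and 8, 16 and 18 with lean secretome (chosen after its values were seen). Ptprc, Csf1r and Cldn4 were also highest with lean secretome in E0771, and their part was not tested. In NMuMG Arnt2 had between 140 and 218 reads per library. Against control medium, 6 of 7 partners rose in E0771 and 4 of 9 in NMuMG, and none fell, where 56.3% and 38.2% of all genes were called, 27.3% and 19.1% as higher. Without control replicate 1 the NMuMG number was 2 in place of 4, and the Ptges3 call was lost in 7 of 11 alternatives. With obese secretome Hsp90aa1 rose over control in NMuMG (0.21, SE 0.0304, adjusted p = 1.39e-05).

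All 13 coregulators were tested in both lines. In lean against obese 4 rose and 3 fell in E0771, and 2 rose and 1 fell in NMuMG, where 52.7% and 35% of all genes were called. The decreases in E0771 were the coactivator Ncoa2 (-0.28, SE 0.0557, adjusted p = 0.000141) and the ubiquitin ligase parts Rbx1 (-0.28, SE 0.0476, adjusted p = 2.58e-05) and Ddb1 (-0.25, SE 0.0340, adjusted p = 1.18e-06). The increases were Ncoa7, Nrip1, Cul4b and Cdc37, between 0.14 and 0.22 on the log2 scale. The Ncoa7 call (0.22, adjusted p = 0.0200) was lost without lean replicate 1 (0.0664) or 3 (0.0513) or obese replicate 1 (0.115). Ncoa2 rose in NMuMG (0.17, SE 0.0428, adjusted p = 0.00204), and the lines differed by 0.43 (SE 0.0704, adjusted p = 3.68e-06). The NMuMG calls of Ncoa7 (0.16, adjusted p = 0.0384) and Rbx1 (-0.12, adjusted p = 0.0396) were lost without any 1 lean library.

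Enzymes of tryptophan breakdown, a source of ligands for the receptor, were mostly at or near 0. Of 11 such genes 5 were tested in each line. Ido1, Tdo2 and Kynu, which start and carry on the kynurenine path, had at most 4 reads in any mouse library. Kyat1, a kynurenine aminotransferase, fell by 0.36 in E0771 in lean against obese (SE 0.119, adjusted p = 0.0133), a call lost without obese replicate 3 (0.0672). It rose by 0.54 in NMuMG (SE 0.148, adjusted p = 0.00444), and the lines differed by 0.88 (SE 0.188, adjusted p = 0.000235). Haao, which acts further down that path, had 4 to 15 reads per library in E0771 in control medium, 3 to 6 with obese secretome and 12 to 22 with lean secretome. It passed the filter through the lean libraries, with 1 other library at the minimum, so these reads are given with no test.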

How the data were processed

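RNA of 30 libraries was prepared with a directional kit and sequenced on a NovaSeq as 150 x 150 bp, per the labels' protocols. The authors deposited raw counts per Ensembl gene ID, made with cutadapt 1.16, STAR 2.7.9a and featureCounts 1.6.3 on GRCm39, per the submitters' processing notes. The human build, annotation release and strand setting are not given in the sources used here. Mouse symbols came from GENCODE M21 and matched 52073 of 56980 IDs. No table of human names was used, so pathway lists were run in mouse alone.

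Counts were filtered with filterByExpr and fitted per line with 3 media in edgeR 4.0.16 (R 4.3.3, TMM, robust quasi-likelihood). A fit of 18 mouse libraries gave differences between lines. CPM used TMM-scaled totals, log2 CPM a prior count of 2, and the detection floor was 3 counts; intervals cover counting error only. Simulated data of lean against obese had 100 genes changed 1.5-fold and 100 changed 2-fold. Of those changed 1.5-fold, 71% (E0771) to 73% (SkBr3, NMuMG) were recovered, and 6.47% (NMuMG), 7.43% (SkBr3) and 8.05% (E0771) of calls were false. Far more genes were called in the data, so these rates may not hold there. DESeq2 1.42.0 and the other alternatives are given at the end.

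The genes, lists and tests were chosen with earlier results of these data known. All members were named, and per list, line and comparison up to 4 called genes of largest change, mainly for lean against obese, plus those in counts of 5 or fewer. Some list genes are not reported here.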

Additional observations from a re-analysis of the deposited data

Results flagged for a closer look

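In SkBr3 with lean secretome, replicate 3 had 5.11 CPM of AHRR, far above the other 3 libraries of its group (2.79 to 3.13 CPM). Among 15 groups of 4 libraries looked at in this way it was the only such library, and chance gives about 1 in 20 groups. The same library was the lowest of its group for CYP1A1 and CYP1B1. Over the genes counted it also lay farther from the other lean libraries than they lay from each other. The chi-square of the counts per degree of freedom was 9.46, 10.5 and 13.7 for pairs with it. It was 3.66, 4.28 and 5.77 for lean pairs without it.

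Effects of lean against obese secretome that differed between the mouse lines by an interaction test are given as NMuMG minus E0771 on the log2 scale, each with an adjusted p under 0.05 in edgeR. Tiparp differed by -0.56, and by -0.41 for lean secretome against control medium. Among the chaperones and partners, Hsp90aa1 differed by -0.80, Ptges3 by -0.38, Hif1a by -0.36 and Sim2 by -1.23. Among the coregulators, Ncoa2 differed by 0.43 and Ddb1 by 0.26. Of the further targets and the tryptophan enzymes named, Ereg differed by -0.60 and Kyat1 by 0.88. In the joint fit 34.2% of all genes differed in this comparison.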

How the results depend on the processing

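Over 549 recomputed values of the receptor genes, 511 kept their direction and their side of the threshold, 21 lost the call, 5 gained it and 12 changed sign. Of 570 values of the named list genes, 516 kept both and 54 lost the call. In SkBr3 the calls of CYP1A1, CYP1B1 and AHR in both lean comparisons held in all 13 alternatives, with log2 values without 1 library from 1.67 to 2.33 (CYP1A1 over obese). The sign changes were all of values that were not called: Tiparp in E0771 obese against control (-0.00053 with the replicate block, -6.2e-05 with the compared groups alone, and -0.064 to 0.049 without 1 library), and, without 1 library, Tiparp in NMuMG lean against control (-0.0291 to 0.0744), and Ahr (-0.0623 to 0.0571) and Cyp1a1 (-0.147 to 0.740) in NMuMG obese against control. The cause was not tested.

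The number of receptor genes called without 1 library ranged from 1 to 2 (E0771 lean against obese), 1 to 4 (NMuMG lean against obese) and 2 to 3 (NMuMG lean against control). The number of all genes called in obese against control moved most. In SkBr3 it was 172, and 539 with no filter, 384 in DESeq2, 849 with the compared groups alone and 20 to 374 without 1 library. In E0771 it was 360, and 626 with no filter and 79 to 498 without 1 library. In NMuMG it was 752 and 384 to 893 without 1 library. For the difference between the mouse lines in this comparison it was 279, and 428 with no filter, 422 in DESeq2 and 149 to 360 without 1 library. The cause was not tested.

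Libraries with the same number in 2 media of a line were compared by their deviations from the group means. These correlated at between -0.0942 and 0.110 over 9 pairs in E0771. The range was -0.0285 to 0.0250 over 9 pairs in NMuMG and -0.0452 to 0.0523 over 12 in SkBr3. These values do not show whether such libraries shared a batch. Libraries of the same number in different lines were not compared, and obese replicate 1 stood high for Nqo1 in both mouse lines. With the replicate block, 7150 genes were called in E0771 lean against obese, against 7275 without it, and in SkBr3 obese against control 223 against 172. Of 122 values recomputed with the block, the call or sign changed in 2: Tiparp, above, and Ptges3 in NMuMG lean against control (0.090, adjusted p = 0.0540). Depth limits Ahrr, Cyp1a1 in both mouse lines and Sim2, which have few reads.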
